A study of Mus musculus with 2 samples.

Results

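Prdm1 and Bcl6 encode a pair of transcriptional repressors, and the open chromatin peaks around both genes are described here in activated mouse CD8+ T cells. A peak was counted for a gene when the nearest protein-coding start site within 100 kb of its summit was that of the gene, or when the peak lay within 1 kb of a start site of the gene. By this rule 48 of 127423 peaks of the vehicle library and 65 of 179414 peaks of the TAMo library belonged to the 2 genes, of 20807 autosomal protein-coding genes. Prdm1 had 34 peaks in vehicle and 43 in TAMo, and Bcl6 had 14 and 22.

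The assay was ATAC-seq, which reads open chromatin from where a transposase can cut and tag the DNA. OT-I cells, CD8+ T cells with a transgenic receptor for an ovalbumin peptide, were labelled wild type (WT) and stimulated with that peptide for 48 h in both groups. In the vehicle group they were cultured with vehicle, and in the TAMo group with TAMos, CD11b+ Ly6G- Ly6C-high myeloid cells taken from spleens of mice carrying LLC (Lewis lung carcinoma) tumours. About 50000 CD8+ T cells were then sorted from each culture for 1 library. Neither the age of the mice nor the number of donors is given in the labels. With 1 library per group there is no measure of spread between cultures and no test of the groups, so each difference below is between 2 libraries.

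Prdm1 encodes Blimp-1, a zinc finger repressor that recruits histone-modifying enzymes and is known in CD8+ T cells for promoting terminal effector differentiation. Bcl6 encodes a BTB zinc finger repressor that recruits NCoR and SMRT and is known for holding lymphocytes in memory precursor, follicular helper or germinal centre states. The 2 proteins repress each other's genes in lymphocytes, and cytokine signals through STAT proteins and antigen receptor signals through IRF4, BATF and AP-1 reach both genes.

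Both genes lie on the minus strand (build mm10, GENCODE M21). Prdm1 (ENSMUSG00000038151) runs from 44437177 to 44458748 on chromosome 10, and Bcl6 (ENSMUSG00000022508) from 23965052 to 23988852 on chromosome 16. The 250 bases before each start site are printed because the promoter peak of each gene in both libraries reaches into them, and a further stretch, before a start site that RefSeq places in the first Bcl6 intron, because the highest peaks in the Bcl6 gene lie near it. The sequences are from RefSeq (GRCm38.p6), on the minus strand at chr10:44458749-44458998, chr16:23988853-23989102 and chr16:23981284-23981533. Capitals mark matches to the AP-1 form TGANTCA and the STAT form TTCNNNGAA.
Prdm1 promoter: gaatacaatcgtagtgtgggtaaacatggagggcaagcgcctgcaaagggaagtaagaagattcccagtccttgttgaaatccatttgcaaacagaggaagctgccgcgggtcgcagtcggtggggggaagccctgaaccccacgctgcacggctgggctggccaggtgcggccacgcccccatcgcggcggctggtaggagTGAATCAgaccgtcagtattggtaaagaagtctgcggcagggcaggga
Bcl6 promoter: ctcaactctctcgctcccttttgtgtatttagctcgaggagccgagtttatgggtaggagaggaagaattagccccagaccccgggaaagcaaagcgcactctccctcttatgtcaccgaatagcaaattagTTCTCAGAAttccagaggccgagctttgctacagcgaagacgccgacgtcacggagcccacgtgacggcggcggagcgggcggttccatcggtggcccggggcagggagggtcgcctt
Bcl6 first intron: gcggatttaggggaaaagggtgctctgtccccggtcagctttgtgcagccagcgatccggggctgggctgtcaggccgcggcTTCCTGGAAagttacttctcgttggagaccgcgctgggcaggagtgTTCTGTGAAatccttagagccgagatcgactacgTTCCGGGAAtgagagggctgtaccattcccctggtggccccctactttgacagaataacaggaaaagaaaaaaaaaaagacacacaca

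The Prdm1 stretch held 1 AP-1 form, TGAATCA, from 48 to 42 bases before the start. The Bcl6 promoter held 1 STAT form, TTCTCAGAA, from 118 to 110 bases before the start. The intronic stretch held 3 STAT forms, TTCCTGGAA, TTCTGTGAA and TTCCGGGAA, the first of which also matched the overlapping Bcl6 form TTCNAGGAA on the other strand. Among the promoters of equal length in the RefSeq table, 32851 in all, 6.75% held the AP-1 form, 7.02% the STAT form and 1.31% the Bcl6 form. No match was found in the 3 stretches for the Blimp-1 core AGNGAAAG (7.3% of all promoters), the ISRE form, GAAA followed after any 2 bases by GAAA (2.98%), the ETS core CCGGAAG (6.91%) or the Runx form TGNGGTNA (11.5%). Both strands were searched, and a match is only a match of letters.

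At the Prdm1 promoter both libraries had a peak over the start site, with a coverage at the summit of 586 reads in vehicle and 877 in TAMo. Coverage here is the number of reads piled up at the summit, recovered from the authors' fold enrichment and p-value. It was divided by the most frequent background value of each library, 4.71 reads in vehicle and 5.80 in TAMo, before any ratio was taken. The log2 ratio of TAMo to vehicle was 0.28, with an exact binomial 95% interval of 0.13 to 0.43. These intervals cover counting error only, here and below. The peak lay at 44458487-44459126 in vehicle and at 44458467-44459159 in TAMo, with its summit in the noncoding part of the first exon. Regions open in both libraries, the shared regions, were shifted upward, mostly through distal ones. The median log2 ratio of all 103845 was 0.28. It was 0.05 for shared regions with a summit at a promoter and 0.37 for the other, distal shared regions. Centred on all shared regions, the Prdm1 promoter ratio was 0.00, and centred on shared promoter regions it was 0.23. Among 12933 genes with overlapping promoter peaks the median was 0.03, and 79.59% had a ratio below that of Prdm1. A second, lower peak over the first Prdm1 intron had 95 reads in vehicle and 85 in TAMo (log2 -0.46, interval -0.90 to -0.03).

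At the Bcl6 promoter the strongest peak was not the same one in the 2 libraries. In vehicle it was the peak over the start site, at 23988777-23989065 with 262 reads, and in TAMo it was the peak over the first exon, at 23988495-23988718 with 356 reads. No ratio of strongest promoter peaks was therefore given for Bcl6. Taken region by region, the one over the start site had 262 reads in vehicle and 299 in TAMo (log2 -0.11, interval -0.36 to 0.13). The one over the noncoding part of the first exon had 198 and 356 reads (log2 0.54, interval 0.29 to 0.80). The region in the first intron, at 23988047-23988196 in vehicle, had 106 and 221 reads (log2 0.76, interval 0.42 to 1.11). A further intronic peak at 23987887-23988036, with 198 reads, was called in TAMo and overlapped none in vehicle. The start site itself was thus nearly level on this scale, while the adjoining exon and intron were higher in TAMo. The local background beside these regions was also higher in TAMo, by 0.28 to 0.32 on the log2 scale. Its part in the difference was not tested.

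**Figure D1:**
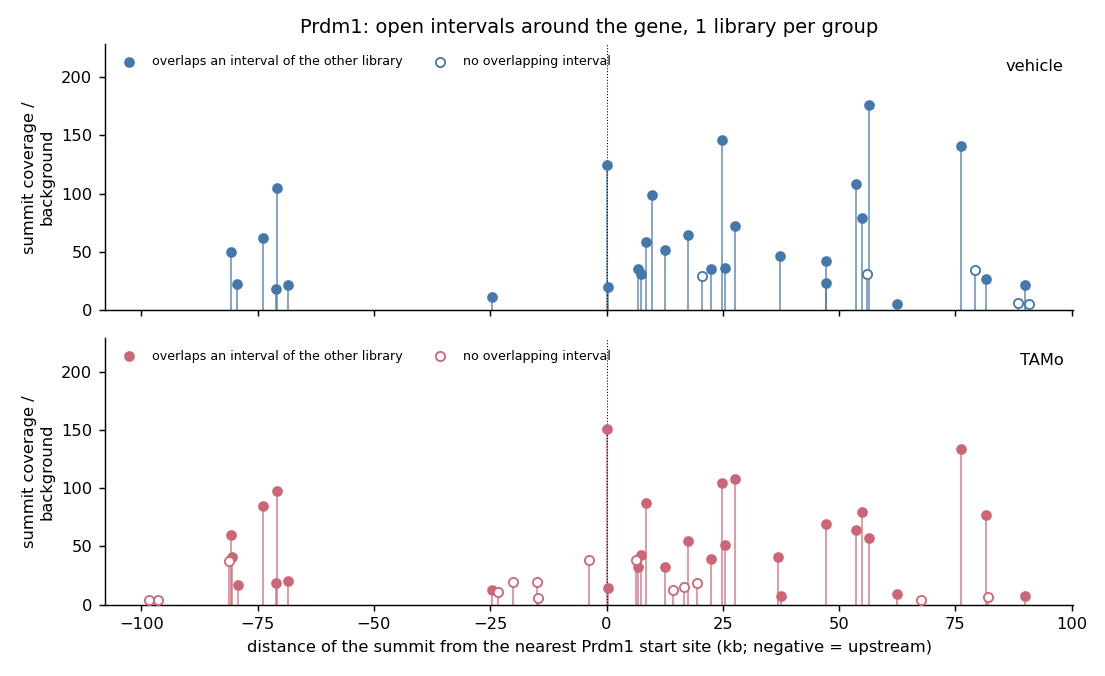
Summit coverage divided by the library background (y axis) of every Prdm1 peak against its distance from the nearest Prdm1 start site in kb (x axis), vehicle above and TAMo below. Filled points overlap a peak of the other library and open points do not. The tallest vehicle peak (175.7) stands 56.5 kb downstream and the tallest TAMo peak (151.1) at the promoter, and the open points just upstream of the start are in TAMo alone.

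The peaks around Prdm1 spread over both sides of the gene. In vehicle 7 lay upstream and 27 downstream, and in TAMo 16 and 27. By annotation of the summit, 2 vehicle peaks lay in exons, 6 in introns and 26 in intergenic sequence, against 3, 8 and 32 in TAMo. The next protein-coding start sites are those of Atg5, an autophagy gene, 190.4 kb downstream, and Prep, 608.5 kb upstream. Of the 34 vehicle peaks 29 overlapped a TAMo peak, and 29 of the 43 TAMo peaks overlapped a vehicle peak. The overlapping peaks formed 27 shared regions, with a median distance of 16 bp between the summits of both libraries.

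Across these 27 regions the log2 ratio had a median of -0.08, from -1.62 to 1.52. Centred on all shared regions it was -0.35, and centred on shared promoter regions -0.12. With nearest summits within 100 bp paired in place of regions, an alternative added after seeing the data, it was 0.01, so its sign is not settled. Among the 2720 genes with at least 10 shared regions, whose medians themselves had a median of 0.31, 10.48% had a lower one than Prdm1. Of the Prdm1 regions 1 (3.70%) was at least 2-fold higher in TAMo, where 21.9% of all shared regions were. At least 2-fold lower were 2 (7.41%), where 3.19% of all shared regions were. A second reading used the counting intervals, calling a region higher when its interval lay above the overall median and lower when it lay below 0. By it 3 Prdm1 regions (11.1%) were higher, against 30.8% of all shared regions, and 8 (29.6%) lower, against 13.7%. The limits for higher and lower differ, and the balance depends on them. Measured from 0 alone, 9 intervals lay above and 8 below. Measured from the overall median alone, 3 lay above and 14 below. Shares over all shared regions were not computed for the counts of 9 and 14.

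The 3 regions past 2-fold all lay far downstream of Prdm1. The lowest ratio, at 44400360-44401104 in vehicle and 56.5 kb downstream, came from 827 reads in vehicle and 331 in TAMo (log2 -1.62, interval -1.81 to -1.44). It was the highest Prdm1 peak of the vehicle library, above the promoter. At 44367052-44367587, 89997 bp downstream, 104 reads in vehicle stood against 44 in TAMo (log2 -1.54, interval -2.09 to -1.02). The opposite order was seen 81.5 kb downstream, at 44375573-44375877, with 126 reads in vehicle and 445 in TAMo (log2 1.52, interval 1.23 to 1.81). Differences of both signs past 2-fold thus stood on the far downstream side.

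The 56.5 kb region belongs to a cluster between 53 and 57 kb downstream, with 4 peaks in vehicle and 3 in TAMo. Its middle region, 55.0 kb downstream, had 371 reads in vehicle and 464 in TAMo and was level after scaling (log2 0.02, interval -0.18 to 0.22). The region at 53.7 kb had 512 and 374 reads (log2 -0.76, interval -0.95 to -0.56). A small peak of 148 reads at 44401167-44401318 was called in vehicle and overlapped none in TAMo. The cluster did not move as 1 unit, since 2 regions were lower and the one between them was not. The local background that the authors' peak caller assigned to the 3 regions was lower in TAMo by 0.91 to 0.93 on the log2 scale. Its part in the differences was not tested.

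Between the cluster and the 3' end of the gene, several regions were higher in TAMo by less than 2-fold. The region 47.3 kb downstream had 200 reads in vehicle and 402 in TAMo (log2 0.70, interval 0.46 to 0.96), and the one 27.5 kb downstream had 342 and 624 (log2 0.57, interval 0.37 to 0.76). Only a few kb closer, at 24.8 kb, 686 reads in vehicle stood against 608 in TAMo (log2 -0.48, interval -0.64 to -0.32). The strongest region beyond the cluster, 76.2 kb downstream, had 663 and 776 reads (log2 -0.08, interval -0.23 to 0.08). Over the 13 shared regions beyond the 3' end the median log2 ratio was 0.02.

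Within the transcribed part of Prdm1 the 7 shared regions had a median log2 ratio of -0.18, and none was past 2-fold. An intronic region 12.7 kb into the gene had 243 reads in vehicle and 190 in TAMo (log2 -0.66, interval -0.94 to -0.38). A coding exon 17.4 kb from the start held 304 and 317 reads (log2 -0.24, interval -0.47 to -0.01). The intronic region 7.4 kb from the start went the other way, with 146 and 247 reads (log2 0.46, interval 0.16 to 0.76). The region 8.5 kb from the start, with 467 and 508 reads, gave the median of -0.18. Its strongest summits lay 1174 bp apart, so its ratio set different summits against each other. A vehicle peak of 276 reads had its summit at 44448694, near the TAMo summit at 44448687, so the sign of this region is not settled. By the strongest summits the gene body was mixed, with its promoter above and most of its inner regions below 0 before centring.

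Upstream of Prdm1 the 7 shared regions had a median log2 ratio of 0.05, and none was past 2-fold. Most stood between 68 and 82 kb upstream, where vehicle had 6 peaks and TAMo 8. The highest, at 44529211-44529670 and 70.8 kb upstream, had 494 reads in vehicle and 566 in TAMo (log2 -0.11, interval -0.28 to 0.07). It begins 710 bp from the start of Prdm1-203, a transcript with a retained intron in the full GENCODE annotation. The region 73.9 kb upstream had 292 and 490 reads (log2 0.44, interval 0.23 to 0.66).

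Peaks called in 1 library were also unequal around Prdm1. In TAMo 14 of 43 peaks (32.6%) overlapped no vehicle peak, where 39.5% of all TAMo peaks did. In vehicle 5 of 34 (14.7%) overlapped no TAMo peak, where 12.5% of all vehicle peaks did. Both shares stood near those of the whole lists. Of the 14 in TAMo 8 lay upstream, as did 16 of all 43 TAMo peaks. All 5 in vehicle lay downstream, as did 27 of all 34 vehicle peaks. In the stretch from 1 to 24 kb upstream of the start TAMo had 5 peaks, of 36 to 225 reads, and vehicle had none. The highest of these, at 44462501-44462751 and 3.9 kb upstream, had 225 reads, and those at 44473629-44473999 and 44478670-44478986 had 112 and 113. This stretch was picked out after its values were seen. One TAMo peak, at 44539872-44540111 and 81.2 kb upstream with 219 reads, was among the 50000 strongest of its list and had no vehicle counterpart, which held for 5.41% of those strongest peaks. The 5 vehicle peaks had 27 to 162 reads and none was among the 50000 strongest of its list, of which 1.07% had no TAMo counterpart. A peak missing from a list may still have reads below the calling threshold: the lowest summit called had 13 reads in vehicle and 14 in TAMo.

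**Figure D2:**
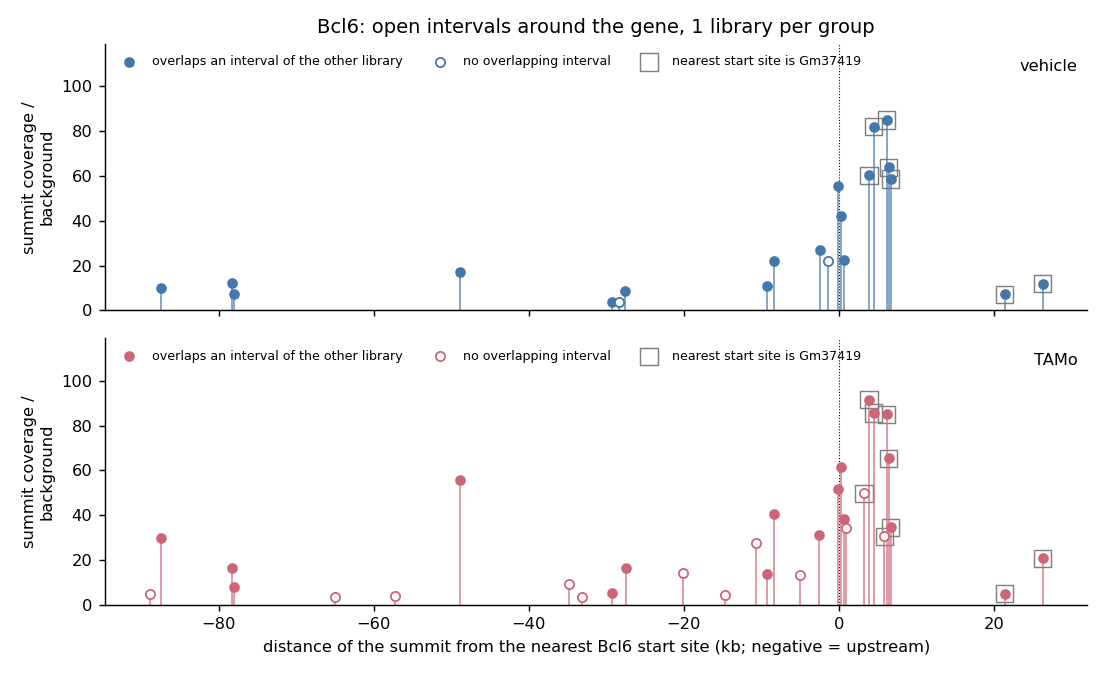
Summit coverage divided by the library background (y axis) of every peak around Bcl6 against its distance from the nearest Bcl6 start site in kb (x axis), vehicle above and TAMo below. Filled points overlap a peak of the other library, open points do not, and squares mark peaks in or beyond the gene body whose nearest start site is Gm37419. From 3 to 100 kb upstream vehicle has 9 points and TAMo 17, and the point 48.9 kb upstream stands at 17.0 in vehicle and 55.7 in TAMo.

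The Bcl6 peaks chosen by the rule lay almost wholly upstream. This follows from Gm37419, a predicted protein-coding model of 114 bp on the opposite strand inside the 5' end of Bcl6, at 23988482-23988595, which is the nearest start site for summits farther into the gene. In vehicle 12 of the 14 Bcl6 peaks lay upstream of the start, and in TAMo 19 of 22. The next coding start site upstream is that of Lpp, 404.7 kb away, and downstream that of Rtp2, 58.1 kb away. The 7 vehicle and 9 TAMo peaks on the Bcl6 side of Gm37419 are given separately below. Without them, summit coverage was lower than around Prdm1, with a median of 69 reads in vehicle and 89.5 in TAMo, against 170 and 219 for Prdm1. With them the Bcl6 medians were 103 and 159, so part of this gap follows from the rule.

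All 12 shared Bcl6 regions but the one over the start site had a log2 ratio above 0. The median was 0.49 and the range -0.11 to 1.71. Centred on all shared regions the median was 0.21, so the median stayed above 0 while its size was smaller. The regions with ratios of -0.11, 0.12 and 0.21 lay below the overall median of 0.28. The 9 Bcl6 regions beyond 1 kb had a median of 0.43, near the 0.37 of all shared distal regions. Of the 2720 genes with at least 10 shared regions 66.25% had a lower median than Bcl6. At least 2-fold higher in TAMo were 2 regions (16.7%, against the 21.9% of all shared regions), and none was at least 2-fold lower (against 3.19%). By the counting intervals 6 of the 12 regions lay above the overall median, against 30.8% of all shared regions, and none lay below 0, against 13.7%. Measured from 0 alone, 6 also lay above, and measured from the overall median alone, 1 lay below. Shares over all shared regions were not computed for these last 2 counts.

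The largest ratio at Bcl6 was 48.9 kb upstream, at 24037523-24037875 in vehicle and 24037521-24038060 in TAMo. Its summit had 80 reads in vehicle and 323 in TAMo (log2 1.71, interval 1.35 to 2.08). The other region past 2-fold, 87.4 kb upstream at 24076118-24076402 in vehicle, had 48 and 172 reads (log2 1.54, interval 1.07 to 2.03). Nearer the gene, at 23997098-23997794 and 8.4 kb upstream, 104 reads in vehicle stood against 235 in TAMo (log2 0.87, interval 0.53 to 1.22). The region 27.4 kb upstream had 41 and 96 reads (log2 0.92, interval 0.38 to 1.49). Each of these 4 was higher in TAMo by more than its counting interval. The remaining 5 upstream regions beyond 1 kb had log2 ratios from 0.12 to 0.43, and every interval of theirs reached below 0.

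The local background around Bcl6 moved the same way. It was higher in TAMo by at least 0.1 on the log2 scale beside 10 of the 12 regions and lower beside none, with a median of 0.32 and a highest value of 0.94, beside the 48.9 kb region. Among all shared regions it was higher by that much in 41.57% and lower in 28.09%. Around Prdm1 it was higher beside 4 of 27 regions and lower beside 14. The counts are not on an equal footing. At the Bcl6 regions 48.9, 78, 78.3 and 87.4 kb upstream the vehicle background was already at the library-wide 4.71 reads. It could therefore not be lower in TAMo there. Around Prdm1 the same held for the region 24.6 kb upstream. The ratios themselves were not divided by the local background, and its part in them was not tested.

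One-library peaks at Bcl6 were mostly in TAMo and weak. Of 22 TAMo peaks 10 (45.5%, against 39.5% of the whole list) overlapped no vehicle peak, and of 14 vehicle peaks 2 (14.3%, against 12.5%). The TAMo peaks had 20 to 198 reads, the highest being the intronic one near the start named above, followed by 159 reads at 23999304-23999801, 10.7 kb upstream, and 83 reads at 24008810-24009274, 20.1 kb upstream. The 2 vehicle peaks had 103 reads, 1.4 kb upstream, and 18 reads, 28.3 kb upstream. None of the 12 was among the 50000 strongest of its list.

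In the Bcl6 gene body, where Gm37419 is the nearest start site, the highest peaks of the locus stood in the first intron between 3 and 7 kb from the start. Vehicle had 5 peaks there, of 276 to 400 reads, and TAMo 7, of 178 to 531 reads. The strongest in vehicle, 6.1 kb from the start, had 400 reads against 494 in TAMo and was level after scaling (log2 0.00, interval -0.19 to 0.20). The strongest in TAMo, 3.9 kb from the start, had 284 and 531 reads (log2 0.60, interval 0.39 to 0.81). At 6.7 kb the order was the reverse, with 276 reads in vehicle and 201 in TAMo (log2 -0.76, interval -1.03 to -0.49). Over the 7 shared regions on this side, which include an intergenic one past the 3' end, the median was 0.03. With them added, Bcl6 had 21 peaks in vehicle and 31 in TAMo and a median of 0.42 over 19 shared regions. Over the 5 shared regions of the intron cluster alone the median was also 0.03, against 0.43 over the 9 upstream regions beyond 1 kb. No peak overlapped the intronic RefSeq stretch printed above: the nearest to its start site, that of 276 and 201 reads, was 734 bp away in vehicle and 829 bp in TAMo.

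**Figure D3:**
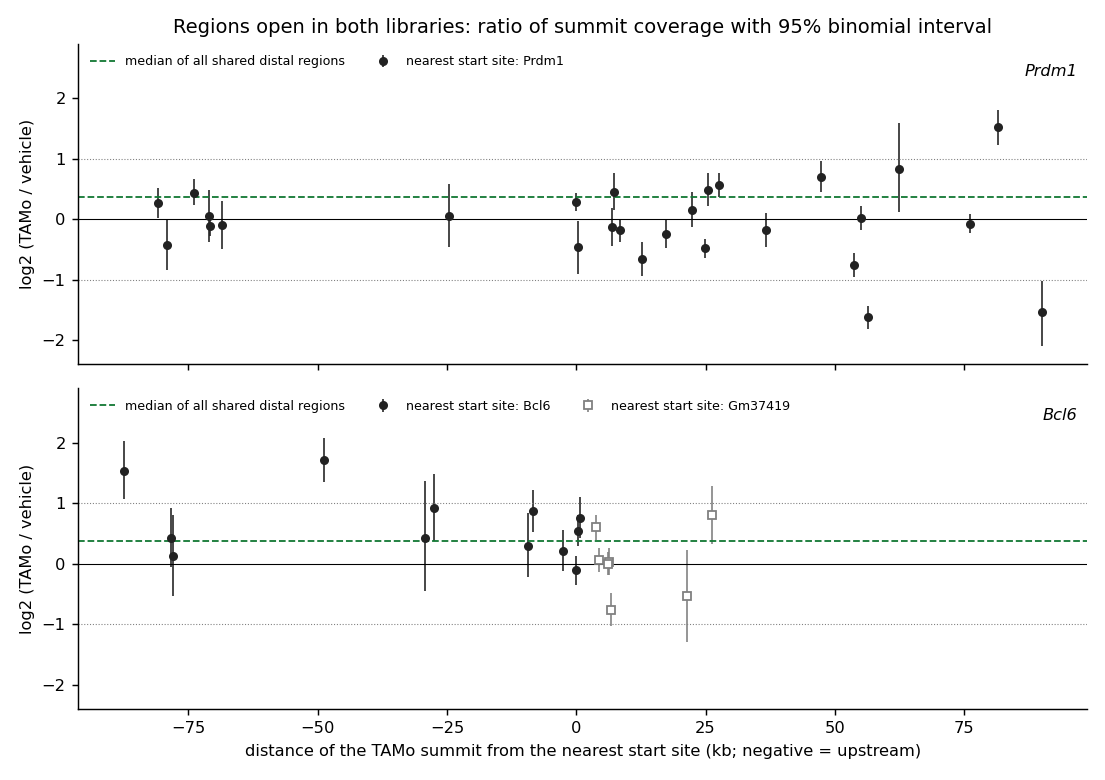
Log2 ratio of TAMo to vehicle (y axis) of each region open in both libraries, with its exact binomial 95% interval, against distance from the nearest start site in kb (x axis), Prdm1 above and Bcl6 below. Dotted lines mark 2-fold and the dashed line the median of all shared distal regions (0.37). Prdm1 regions lie on both sides of 0, from -1.62 to 1.52, and upstream Bcl6 regions beyond 1 kb lie between 0.12 and 1.71.

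Both genes were also set beside distal regions alone. Of the 86116 shared distal regions 25.4% were past 2-fold upward in TAMo and 3.65% past 2-fold downward. Among the 25 Prdm1 regions beyond 1 kb of a start site the median was -0.08, with 1 higher and 2 lower. Among the 9 such Bcl6 regions it was 0.43, with 2 higher and 0 lower. A further reading kept only regions with many reads, summed over both libraries. All distal regions with at least 200 reads over both summits had a median of 0.41, with 28.0% past 2-fold upward and 3.37% downward, and quartiles of -0.06 and 1.12. The 21 distal Prdm1 regions with that many reads had a median of -0.10, below the lower quartile. Without the filter the lower quartile of all shared distal regions was -0.11, and the Prdm1 median of -0.08 lay above it. The place of Prdm1 beside that quartile therefore depends on the filter. Only 4 distal Bcl6 regions had that many, and their median was 1.21. Because the reads are summed, a region can pass through its TAMo reads. The regions 48.9 and 87.4 kb upstream did so, with 80 and 48 reads in vehicle against 323 and 172 in TAMo. The median of 1.21 is therefore partly set by the filter, and nothing about depth is drawn from it.

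**Figure D4:**
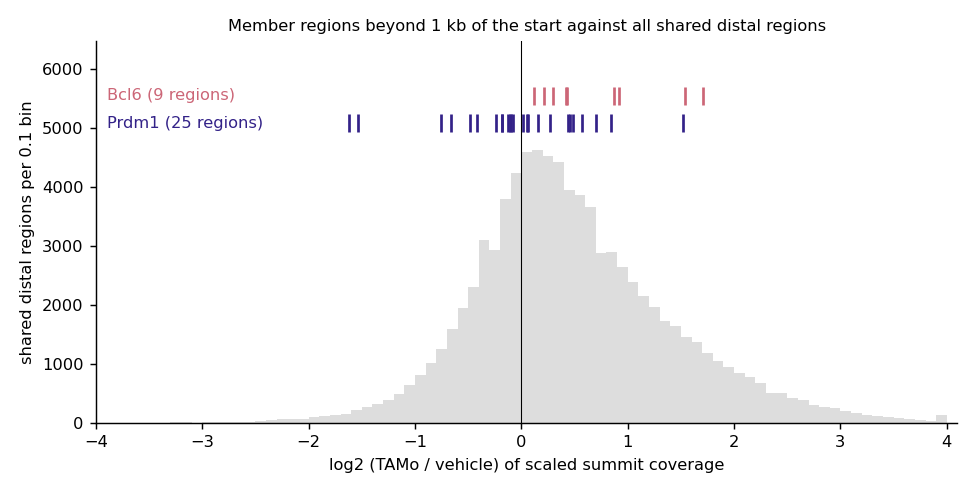
Number of shared distal regions per bin of 0.1 (y axis) by log2 ratio of TAMo to vehicle (x axis, grey bars, with values beyond either end counted in the end bars), and above them 1 tick per Prdm1 and Bcl6 region beyond 1 kb of a start site. The 9 Bcl6 ticks lie above 0, and the 25 Prdm1 ticks have a median of -0.08.

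More peaks were called in TAMo at both genes, as in the list as a whole. The log2 ratio of peak numbers was 0.33 for Prdm1, at the median of the 2720 genes (0.33), and 0.63 for Bcl6, above 82.06% of them. These numbers depend on list length. With the TAMo list shortened to the number of vehicle peaks, Bcl6 had 14 peaks in vehicle and 15 in TAMo, and Prdm1 34 and 36. With a −log10 q of at least 10 they were 11 and 15 for Bcl6, and 31 and 37 for Prdm1. Scored by promoter ratio, median region ratio and peak number over the 2 libraries, the genes least distant from Prdm1 among 2337 were Cemip2 (median region ratio -0.05, 19 peaks in vehicle and 24 in TAMo), Slc7a1 (-0.08, 15 and 18) and Pip4k2a (-0.09, 32 and 42). For Bcl6, scored on the last 2 measures alone since it had no promoter ratio, they were Smyd2 (0.49, 18 and 28), Grm4 (0.50, 15 and 24) and Cdyl (0.51, 17 and 27).

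The wider network was read from the promoters of 60 genes listed as inputs and partners, corepressors and reported targets of the 2 repressors. Of these, 49 had overlapping promoter peaks in both libraries, with a median log2 ratio of 0.12, against 0.03 over all 12933 promoters. At least 1.5-fold higher in TAMo were 3 (6.12%), where 9.02% of all promoters were. None was at least 1.5-fold lower, where 3.29% were. On this scale both shares stood below those of all promoters. Centred on all shared regions, 0 of the 49 were higher, where 5.03% of all promoters were, and 4 (Lef1, Myb, Ehmt2 and S1pr1) were lower, where 10.4% were. Centred on shared promoter regions, 2 were higher and 1 was lower, and the shares of all promoters were not computed on that scale.

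All 3 higher promoters were among the 24 inputs and partners with a ratio. Maf, a transcription factor of the AP-1 superfamily that acts on IL-10 and IL-21 in T cells, had 272 reads in vehicle and 521 in TAMo (log2 0.64, interval 0.42 to 0.85). Stat4, which carries the IL-12 signal, had 399 and 745 (log2 0.60, interval 0.42 to 0.78), at 1.51-fold just past the limit. Ascl2, a helix-loop-helix factor known from follicular helper cells, had 32 and 65 (log2 0.72, interval 0.09 to 1.38), the widest interval of the 3. Further genes are named after their values were seen. Irf4, an input to both genes downstream of the T cell receptor, had 579 and 884 reads (log2 0.31), and Il21r, the IL-21 receptor, 773 and 1163 (log2 0.29). Lef1 and Bach2, factors of naive and memory T cells, had ratios of -0.47 (interval -0.65 to -0.30) and -0.17 (-0.34 to 0.00). Tcf7, their companion, had 0.16 (-0.10 to 0.42). The intervals of Bach2 and Tcf7 thus reached 0.

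The 6 Blimp-1 corepressors had a median promoter ratio of -0.16, with the G9a gene Ehmt2 the lowest at -0.53. The 7 Bcl6 corepressors had a median of 0.15, with the class IIa deacetylase gene Hdac7 the highest at 0.37. Of the 8 reported Blimp-1 targets 3 had a ratio, with a median of 0.04. The strongest promoter peaks of the others did not overlap, or vehicle had none, so this median speaks only for those 3. Ccr7, the lymph node homing receptor, had 0.04, and the MHC class II activator Ciita had -0.22 on 34 and 36 reads. Of the 11 reported Bcl6 targets 9 had one, with a median of 0.17. Ccnd2, a cyclin, was the highest of them at 0.50. S1pr1, the receptor for exit from lymph nodes, was the lowest, with 495 reads in vehicle and 407 in TAMo (log2 -0.58, interval -0.78 to -0.39), just inside the 1.5-fold limit. Among promoters with a ratio, no class had one past that limit other than the inputs and partners. Promoters without a ratio were not covered by this reading.

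**Figure D5:**
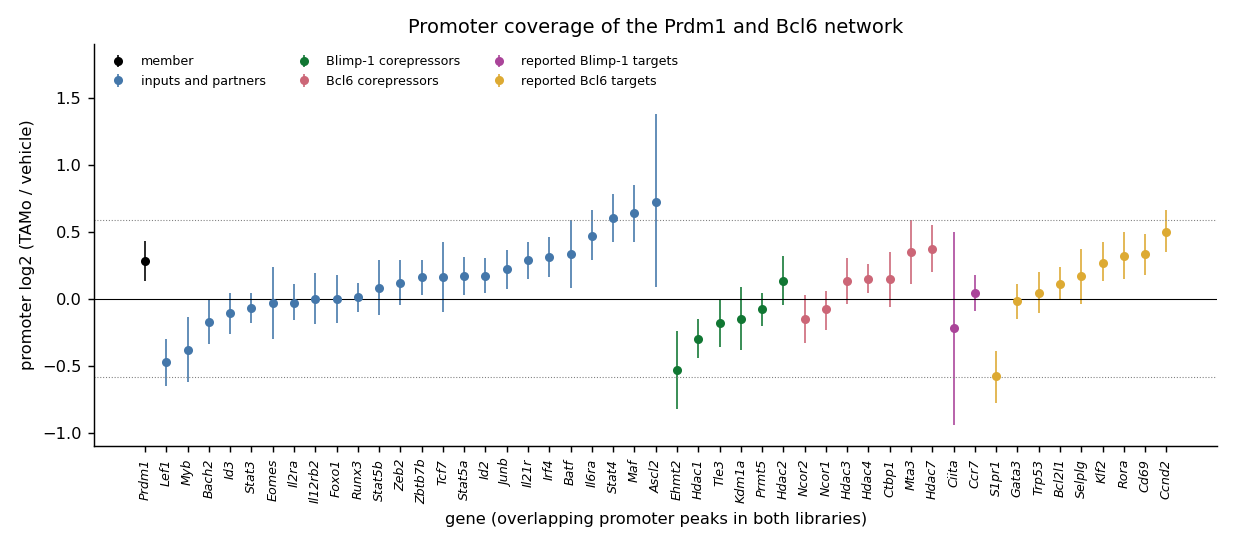
Promoter log2 ratio of TAMo to vehicle (y axis) with its exact binomial 95% interval for Prdm1 and the network genes with overlapping promoter peaks (x axis), coloured by class, with 1 of the 49 not drawn. Dotted lines mark 1.5-fold. Maf, Stat4 and Ascl2 stand above the upper line and no gene below the lower one.

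Markers were read as a check of the labelled cell type. All 5 CD8 T cell markers had promoter peaks in both libraries, with 551 reads at Cd8a in vehicle and 654 in TAMo, and Cd4 had none in either. Zbtb7b, the other gene of the CD4 T helper list, had promoter peaks in both, with 831 and 1144 reads. Summed over the CD8 T cell list and divided by background, coverage stood at 538.5 in vehicle and 604.4 in TAMo. Of 5 B cell markers 2 had a promoter peak in vehicle and 3 in TAMo (summed 74.8 and 68.23), and Cd79a had none in either. Of 7 monocyte and macrophage markers 4 had one in vehicle and 6 in TAMo, with sums of 129.0 and 229.2. Lyz2 had none in either library, Csf1r (100 reads) and Itgam (118 reads) had one in TAMo alone, and Cd14 had 141 and 411 reads (log2 1.24). Bcl6 is also active in myeloid cells, and the part of this marker difference in the Bcl6 and Prdm1 values was not tested.

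The 100 kb limit decided which distant peaks were counted. The farthest Prdm1 peak inside it was 98.4 kb upstream (26 reads, TAMo), and the first one outside was 106.5 kb upstream (276 reads, TAMo). For Bcl6 they were 88.9 kb upstream (29 reads, TAMo) and 104.1 kb upstream (915 reads, TAMo), so a peak higher than any counted for Bcl6 lay just beyond the limit. On the downstream side of Prdm1 the last counted peak was at 90.8 kb (27 reads, vehicle), and the next, at 94.6 kb (25 reads, vehicle), was nearer to Atg5. Downstream of the Bcl6 start the last one counted was the TAMo peak of 198 reads at 0.9 kb, and the next one, at 3.2 kb, had 289 reads.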

How the data were processed

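ATAC-seq was measured in 1 vehicle and 1 TAMo library, each in a peak list of its own. Build mm10 and the tools Trimmomatic 0.36, Bowtie2 and MACS2 are listed in the submitters' processing notes. For options, read shifting and duplicates the step is not given in the sources used here. Each deposited row has a summit, a score, a fold enrichment (a ratio over local background) and the −log10 of both p and q. The score equals 10 times the deposited −log10 q rounded down, apart from 1 vehicle row and 2 TAMo rows. The lists held 163215 and 225656 rows, and rows of 1 interval were counted as 1 peak. Total read numbers are unknown, and the median summit had 81 reads in vehicle and 93 in TAMo.

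Coverage was recovered as the whole number that fits the authors' fold and −log10 p together, within 1% of a step (tolerance 0.01). It was not found for 30 vehicle and 48 TAMo rows. Recovery was tested on simulated data. Peaks overlapping by at least 1 bp were joined into shared regions, and the strongest peak of each library there, by −log10 q, gave the ratio. Binomial intervals (Clopper-Pearson, 95%) cover counting error only, since reads of a PCR library are not independent molecules. Python 3.11.15, pandas 2.3.3 and scipy 1.17.1 were used with GENCODE M21. Start sites came from its basic set and chromosomes other than 1 to 19 were not used here. No genome sequence was used, so peaks are given by position.

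Named were the promoter regions, every shared region past 2-fold, one-library peaks among the 50000 strongest, network genes past 1.5-fold and the 3 genes nearest each member by Euclidean distance. Others were chosen after their values were seen. Values of 2 listed genes are not reported here. The members and lists were chosen with earlier results of these data known. Alternatives changed the scaling, calling threshold, list length, window, promoter width and overlap rule.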

Additional observations from a re-analysis of the deposited data

How the results depend on the processing

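Centring on all shared regions moved the Prdm1 median from -0.08 to -0.35, the Prdm1 promoter from 0.28 to 0.00 and the Bcl6 median from 0.49 to 0.21, and turned 3 higher and 0 lower network promoters into 0 and 4. Centring on shared promoter regions gave 1 lower network promoter. Within 50 kb Prdm1 had 17 vehicle peaks (16 shared) and 24 TAMo peaks (15 shared), with 0 regions at least 2-fold higher and 0 lower, and Bcl6 had 1 higher, since the other such regions lie farther out. Without the Gm37419 start site, an alternative added after seeing the data, 19 Bcl6 peaks of each library were shared. The remaining 68 recomputed values stayed within the margins set for them. Among these, with centring on shared promoter regions, were 2 higher network promoters and a Prdm1 promoter ratio of 0.23. The medians with summits paired within 100 bp, 0.01 for Prdm1 and 0.54 for Bcl6, were also among them. That pairing was also added after seeing the data, and with it the Prdm1 median changed sign. The Bcl6 promoter ratio could not be given, since the strongest peaks did not overlap with all peaks, with a −log10 q of at least 10 or within 2.5 kb, and centring does not change which peaks these are. No paired analysis was possible because each group had 1 library. Calls of weak peaks depend on depth, which was 1.23 times higher in TAMo by the background value.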

Other observations

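Beyond the 100 kb limit the stretch between Bcl6 and Lpp, an adhesion and signalling gene, held further open regions. From 100 kb upstream of Bcl6 to the Lpp start, a span of 304.7 kb, vehicle had 50 peaks and TAMo 76. Of the 48 shared regions, with a median log2 ratio of 0.31, 11 (22.9%) were past 2-fold upward in TAMo and 3 (6.25%) past 2-fold downward, where 25.4% and 3.65% of all shared distal regions were. The region 104.1 kb upstream, at 24092728-24093586 on chromosome 16, had 344 reads in vehicle and 915 in TAMo (log2 1.11, interval 0.93 to 1.29). The region 126.7 kb upstream had 44 and 343 (log2 2.66, interval 2.20 to 3.15). The 3 lower regions lay 176.9, 198.5 and 199.6 kb upstream, the first and strongest with 589 reads in vehicle and 316 in TAMo (log2 -1.20). Between those at 176.9 and 198.5 kb, a region 193.8 kb upstream was higher in TAMo (log2 0.51, interval 0.17 to 0.87). The other shared regions there, 183, 183.4, 192.5 and 198 kb upstream, had log2 ratios of -0.96, -0.27, -0.49 and -0.69. The next shared region past 2-fold, 204.7 kb upstream, had 108 and 433 reads (log2 1.70), so lower and higher regions stood within a few kb of each other.

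From 100 to 500 kb upstream of Prdm1 vehicle had 19 peaks and TAMo 38. The 19 shared regions had a median of 0.26, with 5 (26.3%) at least 2-fold higher and 0 lower, shares that compare with 25.4% and 3.65% of all shared distal regions. The one with the most reads among these 5 lay 157.0 kb upstream, at 44615598-44616175 on chromosome 10, with 184 and 619 reads (log2 1.45, interval 1.21 to 1.69). No vehicle peak of that stretch lacked a TAMo counterpart, while 17 TAMo peaks (44.7%, against 39.5% of the whole list) lacked a vehicle one. Which gene any of these regions acts on was not measured.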
